A study of Homo sapiens with 6 samples.

Results

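PPIF, which encodes the mitochondrial cyclophilin (cyclophilin D), was examined among 10 cyclophilin genes in BT-549 cells with and without NEAT1 silencing. The members, PPIA, PPIB, PPIC, PPID, PPIE, PPIF, PPIG, PPIH, PPIL1 and PPIL2, were taken by symbol from the 25545 genes of the expression table. PPIF was singled out because it differed between the groups in earlier results of these same libraries, so the differences of the members are given as a description, with no p-value for any member and with calls only as counts beside those of all genes tested. BT-549 is an established, mesenchymal triple-negative breast cancer (TNBC) line. Libraries made with an mRNA kit were sequenced from 6 cultures. Of these, 3 received CsiRNA, a control siRNA, and 3 received NEAT1siRNA, directed at NEAT1, for 48 h. The sample titles carry the prefix tet-, while the treatment is given as siRNA, so no inducible construct is assumed here. Replicates of 1 line measure the spread between cultures of that line. With 1 siRNA against NEAT1, loss of NEAT1 and any effect of the siRNA sequence itself cannot be told apart.

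Cyclophilins are peptidyl-prolyl isomerases, enzymes that turn the bond before a proline residue and so help proteins to fold or switch shape. Most are bound by cyclosporin A, and the complex of cyclosporin A with cyclophilin A inhibits the phosphatase calcineurin. Cyclophilin D lies in the mitochondrial matrix and sensitizes the permeability transition pore, a channel whose prolonged opening leads to cell death, while other cyclophilins work in the cytosol, the endoplasmic reticulum (ER) or the spliceosome.

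NEAT1, the lncRNA that scaffolds nuclear paraspeckles, was listed at 13.4, 7.68 and 10.8 TPM with CsiRNA and at 4.36, 2.96 and 2.73 TPM with NEAT1siRNA. TPM, the usual length-scaled unit of abundance, are reads scaled by transcript length and by library. The short and long NEAT1 transcripts share 1 row of the table and were not separated. Recovered depth ran from 15787027 to 20343064 reads per library, and 4 short RNAs took from 64.4% to 68.1% of the TPM. These were the noncoding RNAs RN7SK, RN7SL1, RN7SL2 and RPPH1. Why they took this share of libraries made with an mRNA kit was not tested. VIM stood at 859 to 1112 TPM and CD44 at 200.03 to 279 TPM, while ESR1 was listed at 0 in all 6 libraries. PGR and EPCAM were at or near 0. ERBB2, which the marker list had as low or absent, was at 5.76 to 6.36 TPM. The epithelial keratins, which the marker list had as present, were low, with KRT18 at 1.04 to 2.07 TPM and KRT8 at most 0.283 TPM. The markers of blood, endothelial and liver cells (PTPRC, PECAM1 and ALB) were near 0.

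PPIF was at 46.5, 46.2 and 42.5 TPM in the CsiRNA libraries and at 20.9, 20.5 and 18.7 TPM in the NEAT1siRNA libraries. The groups did not overlap, and the lowest control library held more than 2 times the highest silenced one. The CsiRNA mean was 45.1 ± 2.22 TPM and the NEAT1siRNA mean 20.03 ± 1.19 TPM (SD, n = 3 each), or 44.4% of control. On the log2(TPM + 1) scale the difference, NEAT1siRNA minus CsiRNA, was -1.13 with a standard error of 0.09. PPIF ranked 11 of the 10721 genes tested when these were ordered from the most negative difference. The values rest on 1917, 1932 and 2163 recovered PPIF reads with CsiRNA and on 928, 961 and 776 with NEAT1siRNA. RNA per cell and the number of cells that express PPIF cannot be told apart in bulk RNA.

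All 10 members reached the mean of 1 TPM required for testing. Of the 10, 2 passed an adjusted p of 0.05 (limma), PPIF on the lower side and PPIC on the higher side, where 14.0% of all genes tested passed, 8.98% lower and 4.99% higher. The same 2 members had groups that did not overlap, against 30.3% of all genes tested. Since PPIF was chosen on this contrast, nothing is read from these counts. The 9 members other than PPIF had log2 differences from -0.12 to 0.27 with a median of -0.05, and their standard errors were 0.08 to 0.10. The median of all genes tested was -0.04.

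**Figure D1:**
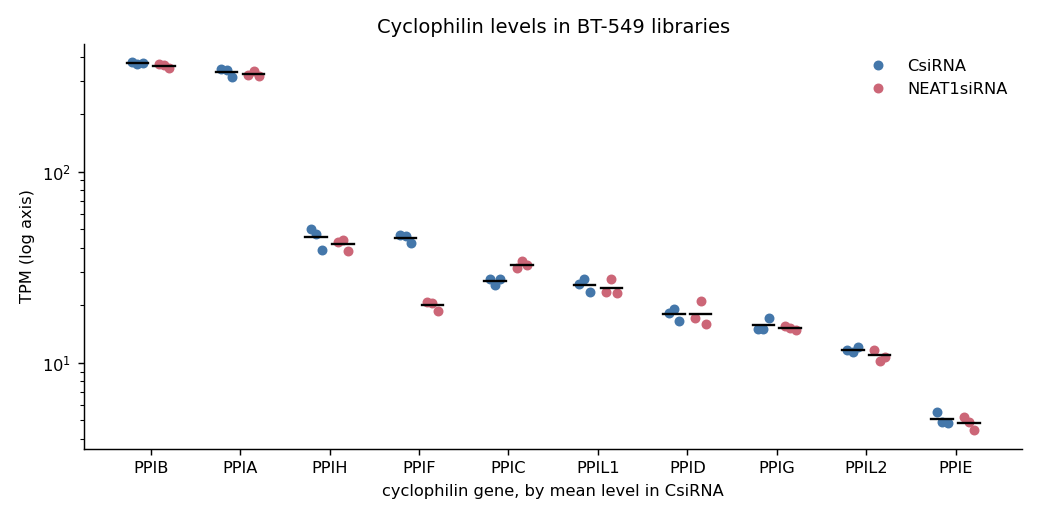
TPM on a log axis for the 10 cyclophilin genes, ordered by mean CsiRNA level, with 1 point per library (3 CsiRNA, 3 NEAT1siRNA) and black lines at the means. PPIF sits at 42.5 to 46.5 TPM with CsiRNA and at 18.7 to 20.9 TPM with NEAT1siRNA, PPIC is slightly higher with NEAT1siRNA, and the other 8 genes overlap between groups.

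Among the cytosolic members, PPIA (cyclophilin A), the abundant founding member and main target of cyclosporin A, was at 346, 339 and 313 TPM with CsiRNA and 322, 337 and 318 TPM with NEAT1siRNA. The groups overlapped, with a log2 difference of -0.03 ± 0.08 (SE). PPIA has many processed copies in the genome, so its reads could be split among them or dropped in counting. The 8 PPIA-like rows with coordinates were each at or below 1.09 TPM in every library. These low values do not show how shared reads were counted. PPID (cyclophilin 40), an HSP90 cochaperone, was at 18.2, 19.1 and 16.6 TPM with CsiRNA and 17.1, 21.1 and 16.0 TPM with NEAT1siRNA. Its silenced libraries spanned the whole control range, and the log2 difference was 0.00 ± 0.10 (SE).

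The secretory members differed from each other. PPIB (cyclophilin B), an ER isomerase that acts on procollagen, had the highest TPM of the members. It was at 373, 367 and 371 TPM with CsiRNA and 367, 362 and 348 TPM with NEAT1siRNA. The highest silenced library met the lowest control library, and the log2 difference was -0.05 ± 0.08 (SE). PPIC (cyclophilin C), a second secretory pathway isomerase, was at 27.4, 25.6 and 27.4 TPM with CsiRNA and 31.2, 34.0 and 32.4 TPM with NEAT1siRNA. Every silenced library was above every control library. PPIC was at 121% of control, a log2 difference of 0.27 ± 0.09 (SE), and was not among the members counted as past the threshold in 7 of 17 other settings, namely without the filter on TPM and when any of the 6 libraries was left out. As a share of PPIB in the same library, PPIC was 7.34%, 6.97% and 7.37% with CsiRNA and 8.49%, 9.38% and 9.31% with NEAT1siRNA.

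The nuclear members gave overlapping groups throughout. PPIH, a partner of the U4/U6 snRNP, was at 50.2, 47.2 and 39.0 TPM with CsiRNA and 42.6, 43.99 and 38.3 TPM with NEAT1siRNA. This was the widest control range in TPM among the members near PPIF in level, and the log2 difference was -0.12 ± 0.10 (SE). PPIL1, a component of the spliceosome, was at 25.8, 27.3 and 23.4 TPM with CsiRNA and 23.6, 27.3 and 23.0 TPM with NEAT1siRNA, a log2 difference of -0.05 ± 0.10 (SE). PPIG, a nuclear cyclophilin with an arginine- and serine-rich tail, was at 14.97, 15.1 and 17.2 TPM with CsiRNA and 15.6, 15.2 and 14.9 TPM with NEAT1siRNA. The control group held the highest PPIG library, and the log2 difference was -0.04 ± 0.09 (SE). PPIL2, which also carries a U-box, was at 11.6, 11.4 and 12.03 TPM with CsiRNA and 11.7, 10.3 and 10.8 TPM with NEAT1siRNA, with a log2 difference of -0.09 ± 0.09 (SE). PPIE, a spliceosomal cyclophilin with an RNA recognition motif, had the lowest TPM of the members. It was at 5.55, 4.89 and 4.83 TPM with CsiRNA and 5.17, 4.89 and 4.43 TPM with NEAT1siRNA. Its log2 difference was -0.06 ± 0.10 (SE). PPIE shares sequence with PPIEL, which was at 0.149 to 0.498 TPM, so a few of its reads are uncertain.

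**Figure D2:**
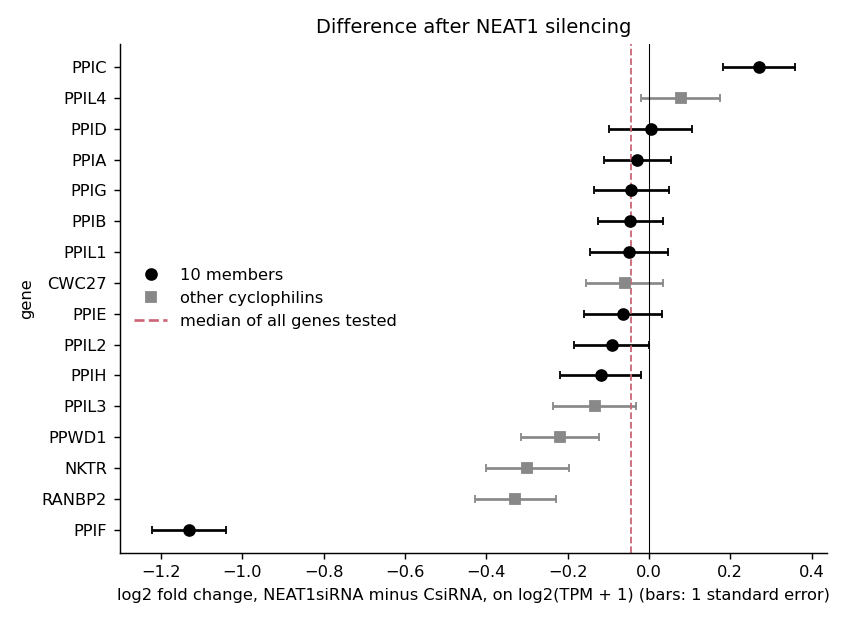
Log2 difference, NEAT1siRNA minus CsiRNA, on log2(TPM + 1), with bars of 1 standard error, for the 10 members (circles) and the 6 other cyclophilins tested (squares). PPIF lies at -1.13, the 9 other members lie between -0.12 and 0.27, and the dashed line marks the median of all genes tested at -0.04.

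TPM are scaled by transcript length, so the members were ordered by TPM. The lengths behind the TPM are not given, and the order between genes depends on them. With CsiRNA the order by mean level was PPIB, PPIA, PPIH, PPIF, PPIC, PPIL1, PPID, PPIG, PPIL2 and PPIE. In that order the library ranges overlapped between PPIH and PPIF, between PPIC and PPIL1, and between PPID and PPIG, so those neighbours were not separated by the spread. With NEAT1siRNA PPIF stood in place 6 instead of place 4, below PPIC and PPIL1, and its range overlapped only that of PPID, the next gene down. The remaining neighbours in the NEAT1siRNA order did not overlap.

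Ratios within a library do not depend on how that library was scaled. PPIF made up 5.05%, 5.12% and 4.90% of the summed TPM of the 10 members with CsiRNA and 2.44%, 2.34% and 2.26% with NEAT1siRNA. The means were 5.03% ± 0.113 and 2.35% ± 0.0876 (SD, n = 3 each). PPIH, the nearest member in level, gave a PPIF to PPIH ratio of 0.926, 0.979 and 1.09 with CsiRNA and of 0.490, 0.466 and 0.488 with NEAT1siRNA. PPIF was thus level with PPIH in the control libraries and below it in every silenced library. Against PPIB, PPIF was at 12.4%, 12.6% and 11.4% with CsiRNA and at 5.70%, 5.66% and 5.36% with NEAT1siRNA. The groups were apart in each of these measures.

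**Figure D3:**
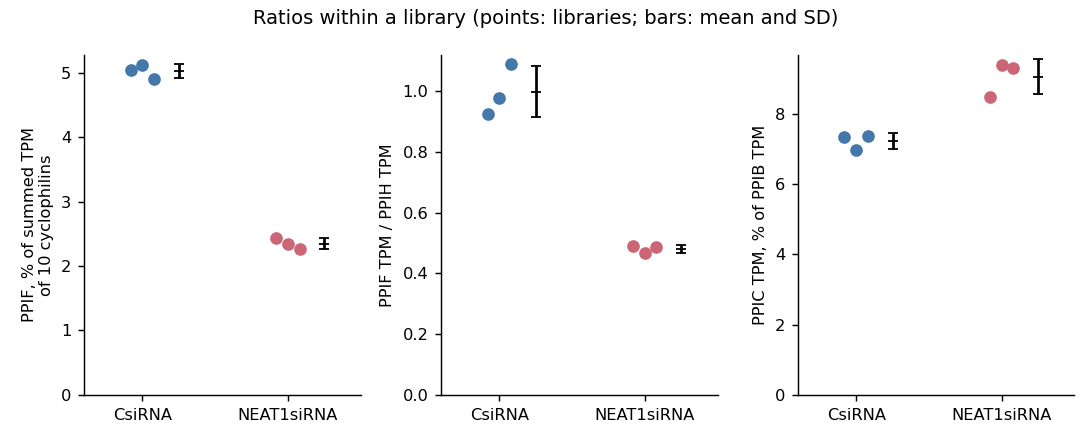
Ratios within each library, with 1 point per library and the mean and SD (n = 3) beside the points: PPIF as a percentage of the summed TPM of the 10 members, PPIF over PPIH, and PPIC as a percentage of PPIB. The PPIF share is 4.90% to 5.12% with CsiRNA and 2.26% to 2.44% with NEAT1siRNA, the PPIF to PPIH ratio is 0.926 to 1.09 and 0.466 to 0.490, and PPIC over PPIB is higher in the silenced libraries.

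The size of the PPIF difference depended little on how the table was handled. Over 17 other settings, which varied the pseudocount, the filter, the scaling, the model and the libraries included, the log2 difference of PPIF ran from -1.17 to -1.08. That of PPIC ran from 0.24 to 0.33. Since PPIF was chosen on these libraries, the narrow range describes the handling of this table and is no independent support for the difference.

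**Figure D4:**
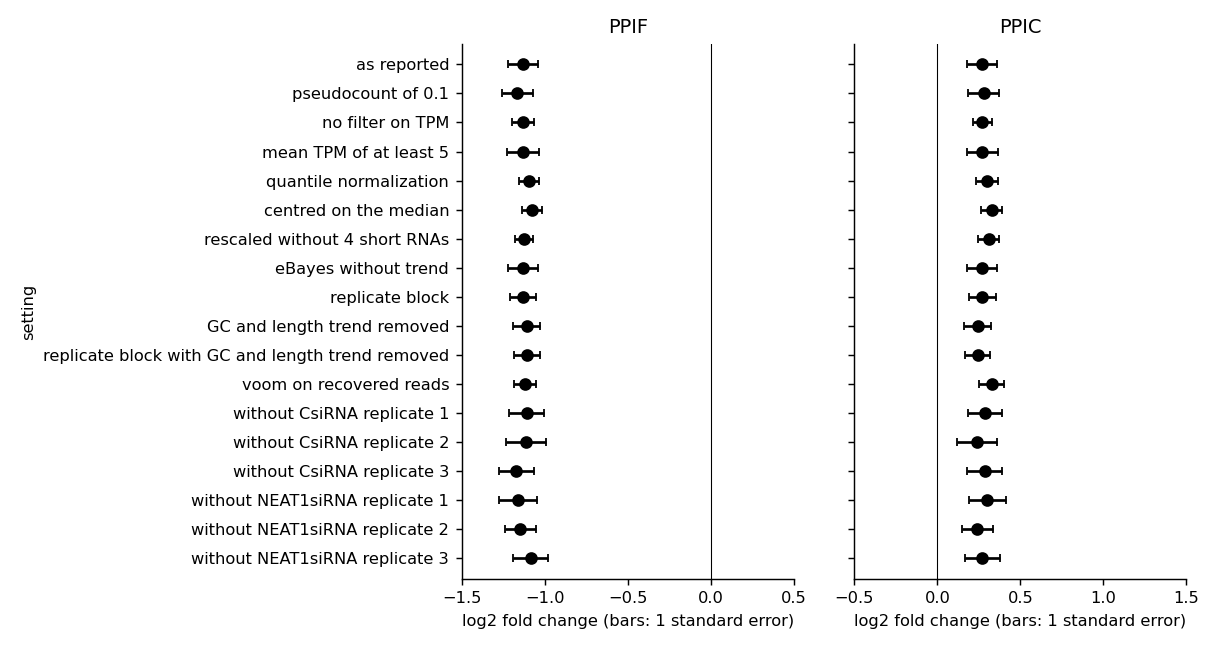
Log2 difference of PPIF (left) and PPIC (right) under the reported settings and 17 others, with bars of 1 standard error. PPIF stays between -1.17 and -1.08 and PPIC between 0.24 and 0.33.

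PPIF lies on chromosome 10 at 79347469 to 79355334 (GRCh38, plus strand), so the genes annotated within 250 kb of it were examined. The upstream neighbour ZMIZ1, a transcriptional coregulator, was at 13.2, 11.7 and 12.7 TPM with CsiRNA and 12.5, 11.5 and 10.2 TPM with NEAT1siRNA. Its groups overlapped (log2 difference -0.13, limma adjusted p = 0.410). EIF5AL1, a near copy of EIF5A whose reads are uncertain for that reason, had a log2 difference of -0.18 (limma adjusted p = 0.258). ZCCHC24 was too low to be tested, at 0.349, 0.276 and 0.429 TPM with CsiRNA and 0.687, 0.896 and 0.714 TPM with NEAT1siRNA. Its silenced libraries were all above the control libraries, opposite in direction to PPIF. SFTPA2, a lung surfactant gene, was at or near 0.

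A search of the canonical transcripts (GENCODE, GRCh38) was made for the 8-base word TCACTTGA, which PPIF shares with NEAT1 and with TARS2, the mitochondrial threonyl-tRNA synthetase. The word was chosen with earlier results of these data known, and TARS2 was named after its values were seen. It was searched on the sense strand of the mRNA and occurred in 2 members, PPIF and PPIE, in the 3′ UTR of both. The other 8 members did not hold these letters in their canonical transcript. The 30-base windows are shown to set the PPIF site beside those of NEAT1 and TARS2, with the shared word in capitals.

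PPIF 3′ UTR, chr10:79354489-79354518 (+): gggaacaaaccTCACTTGAgctgtgcctag
NEAT1, chr11:65426162-65426191 (+): ccctttaagttTCACTTGAaattttaaaaa
TARS2 before the 3′ UTR, chr1:150491604-150491633 (+): ccctttaagctTCACTTGAttgaggagaaa

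Of the 11 bases before the word, TARS2 shared 10 with the NEAT1 site at 65426162, while PPIF shared 2. NEAT1 held 4 sites in all, and over these 4 the most PPIF shared was 5 of the 11 bases before the word and 3 of the 11 after it. PPIE, with the same word, had a log2 difference of -0.06, and TARS2 went from 11.6, 10.2 and 10.7 TPM to 2.29, 1.76 and 1.99 TPM.

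Of the 10020 genes tested with an annotated 3′ UTR, 1031 (10.3%) held the word there. Of these, 12.9% were lower with NEAT1siRNA and 3.01% higher, against 8.04% and 5.16% of those without it. The genes with the word had longer 3′ UTRs, with a median of 3720 bases against 1231 bases. The 3′ UTR of PPIF is 1495 bases long, and among the 2253 genes with 1000 to 2000 bases, 154 (6.84%) held the word. In that range 18.8% of the genes with the word were lower and 3.90% higher, against 8.91% and 5.43% of those without it. These shares include PPIF, the range was set around its length, and the genes were not matched on GC content. The sequence of the NEAT1 siRNA was not used. The shares were not tested and do not show that the word is used.

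The 5 genes whose log2(TPM + 1) followed that of PPIF most closely over the 6 libraries, among 5065 genes with a mean of at least 10 TPM, were TNFRSF10B, CYR61, HAS3, SAMD4A and CXCL1. Pearson's r was 0.999 for TNFRSF10B, a TRAIL death receptor, and 0.996 for CXCL1, a chemokine that attracts neutrophils. CYR61, a matricellular protein, had an r of 0.998 and went from 265, 242 and 230 TPM to 95.1, 98.7 and 85.7 TPM. HAS3, a hyaluronan synthase, also had an r of 0.998, and SAMD4A, an RNA-binding translational repressor, had an r of 0.997. The 6 points fall into the 2 groups compared and share their libraries and scaling, so r says mainly that each gene was lower in the same 3 libraries. Among the members with a mean of at least 10 TPM, r with PPIF was -0.95 for PPIC and 0.75 for PPIB, and it lay between 0.05 and 0.63 for the other 6.

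The genes that surround the cyclophilins in the cell were taken from 12 lists of 153 genes in all, of which 140 were tested. Of the 140, 9 fell and 1 rose, which is 7.14% in all where 14.0% of all genes tested passed. The median log2 difference was -0.10, against -0.04 for all genes tested. The groups did not overlap for 34.3% of the 140, against 30.3% of all genes tested. By list this share ran from 11.1% (calcium transport) to 54.5% (HSP90 and cochaperones). The 10 calls became 2 without CsiRNA replicate 1, 6 without CsiRNA replicate 2, 3 without NEAT1siRNA replicate 3 and 19 without NEAT1siRNA replicate 2. These lists were written with earlier results known and were given no set test.

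Of the 7 other cyclophilins 6 were tested, and 1 of these fell. RANBP2, a large nuclear pore protein that ends in a cyclophilin domain, was at 18.8, 15.9 and 15.9 TPM with CsiRNA and 13.2, 14.6 and 11.8 TPM with NEAT1siRNA (log2 difference -0.33 ± 0.10 SE, limma adjusted p = 0.0280). Near-identical RGPD genes make the RANBP2 level uncertain, and the call was lost without the filter on TPM, without CsiRNA replicate 1 or without NEAT1siRNA replicate 3. The median of the 6 was -0.18, 5 of the 6 were negative, and the groups did not overlap for 2, RANBP2 and NKTR. NKTR was close to RANBP2 in size and just short of the threshold (log2 difference -0.30, limma adjusted p = 0.0506). In another isomerase family, 0 of 14 FK506-binding proteins passed, with groups that did not overlap for 7 of the 14. Of the 14, 6 had a negative difference. FKBP11 was lower (log2 difference -0.30, limma adjusted p = 0.0506) and FKBP5 higher (log2 difference 0.25, limma adjusted p = 0.0916), both without overlap. FKBP1A, the main target of FK506, was at 123, 119 and 114 TPM with CsiRNA and 121, 122 and 117 TPM with NEAT1siRNA (limma adjusted p = 0.925). FKBP3, a nuclear member of that family, had a log2 difference of 0.01 (limma adjusted p = 0.947).

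Around PPIF in the mitochondrion, 1 of 19 pore candidates and cyclophilin D partners fell, 2 of 15 matrix chaperones and proteases fell, 1 of 16 protein import genes fell and 1 rose, and 0 of 9 calcium transport genes passed. The pore candidates and partners, which include the VDACs, the adenine nucleotide carriers and ATP synthase subunits, had a median of -0.06. Of the 19, 15 had a negative difference. The list member that passed was HK1, a hexokinase that docks on VDAC (18.5, 17.8 and 16.6 against 15.2, 14.3 and 12.6 TPM, log2 difference -0.31, limma adjusted p = 0.0298). HK2, a second hexokinase, was near it in size without overlap of the groups (log2 difference -0.28, limma adjusted p = 0.0592). HSPE1, the cochaperonin of HSP60, was at 26.0, 25.6 and 16.9 TPM with CsiRNA and 17.9, 17.1 and 17.1 TPM with NEAT1siRNA. Control library 3 lay below all the silenced libraries for HSPE1, so its groups overlapped although it passed (limma adjusted p = 0.0450).

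GRPEL1, the nucleotide exchange factor of the matrix HSP70, had a log2 difference of -0.29 (limma adjusted p = 0.0466). TIMM17A, a subunit of the inner membrane translocase, had a log2 difference of -0.34 with overlapping groups (limma adjusted p = 0.0306). TOMM20, an outer membrane import receptor, rose from 102, 97.9 and 89.1 TPM to 114, 147 and 118 TPM (log2 difference 0.38 ± 0.10 SE, limma adjusted p = 0.0103). In the calcium transport list, the most abundant genes MCUB and MICU2 had log2 differences of 0.04 (limma adjusted p = 0.856) and 0.16 (limma adjusted p = 0.345). The calls of HK1, HSPE1, GRPEL1, TIMM17A and TOMM20 were all lost without the filter on TPM, and those of the first 4 of these also without CsiRNA replicate 1, CsiRNA replicate 2 or NEAT1siRNA replicate 3. Those of GRPEL1 and TIMM17A were lost without NEAT1siRNA replicate 1 as well. The HSPE1 call was lost in 8 of the 17 other settings, which include quantile normalization, centring on the median, rescaling without the 4 short RNAs and voom, and the TIMM17A call was lost when centred on the median.

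In the calcineurin and NFAT list, which holds the phosphatase that the PPIA and cyclosporin A complex inhibits, 1 of 8 genes tested fell. RCAN1, a feedback inhibitor of calcineurin that NFAT induces, went from 12.5, 11.6 and 10.9 TPM to 6.72, 7.81 and 6.31 TPM. The groups did not overlap, and the log2 difference was -0.68 ± 0.10 (SE, limma adjusted p = 3.75e-05). The call was kept in all 17 other settings, between -0.75 and -0.62, with adjusted p at most 0.0246. The median of that list was 0.04, and 3 of the 8 genes tested had a negative difference. PPP3CA of the same list was higher with NEAT1siRNA, with groups that did not overlap (log2 difference 0.27, limma adjusted p = 0.0703). NFATC2 was too low to be tested, at 0.420, 0.311 and 0.400 TPM with CsiRNA and 0.832, 1.19 and 1.02 TPM with NEAT1siRNA.

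Around PPIB and PPIC, 1 of 15 ER folding partners fell, with a list median of -0.15 and with groups that did not overlap for 8 of the 15. The gene that fell was UGGT1, the glucosyltransferase that checks glycoprotein folding (log2 difference -0.33, limma adjusted p = 0.0227). Around PPID, 0 of 11 HSP90 genes and cochaperones passed, with a median of -0.14 and with groups that did not overlap for 6 of the 11. HSP90AA1, the inducible cytosolic HSP90, was at 759, 766 and 725 TPM with CsiRNA and 633, 684 and 609 TPM with NEAT1siRNA (log2 difference -0.23, limma adjusted p = 0.0565). Its groups did not overlap, and it passed in 8 of the 17 other settings. HSP90AB1, the constitutive cytosolic HSP90, had a log2 difference of -0.14 (limma adjusted p = 0.256) and passed in 0 of the 17.

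Around the nuclear members, 1 of 23 spliceosome partners fell, with a median of -0.13. PLRG1, a core factor of the PRP19 complex, had a log2 difference of -0.30 with overlapping groups (limma adjusted p = 0.0457). Of the receptor of secreted cyclophilins and its partners, 1 of 2 genes tested fell. BSG, that receptor, was at 144 to 155 TPM with CsiRNA and 139 to 150.3 TPM with NEAT1siRNA. SLC16A1, the lactate transporter that BSG carries to the surface, fell from 68.9, 64.0 and 56.4 TPM to 43.9, 52.1 and 44.6 TPM (log2 difference -0.42 ± 0.10 SE, limma adjusted p = 0.00433). The UGGT1, PLRG1 and SLC16A1 calls were lost without the filter on TPM and without CsiRNA replicate 1. That of UGGT1 was lost also without NEAT1siRNA replicate 3, and that of PLRG1 in 6 of the 17 other settings, which include eBayes without trend and leaving out CsiRNA replicate 2 or NEAT1siRNA replicate 1 or 3.

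**Figure D5:**
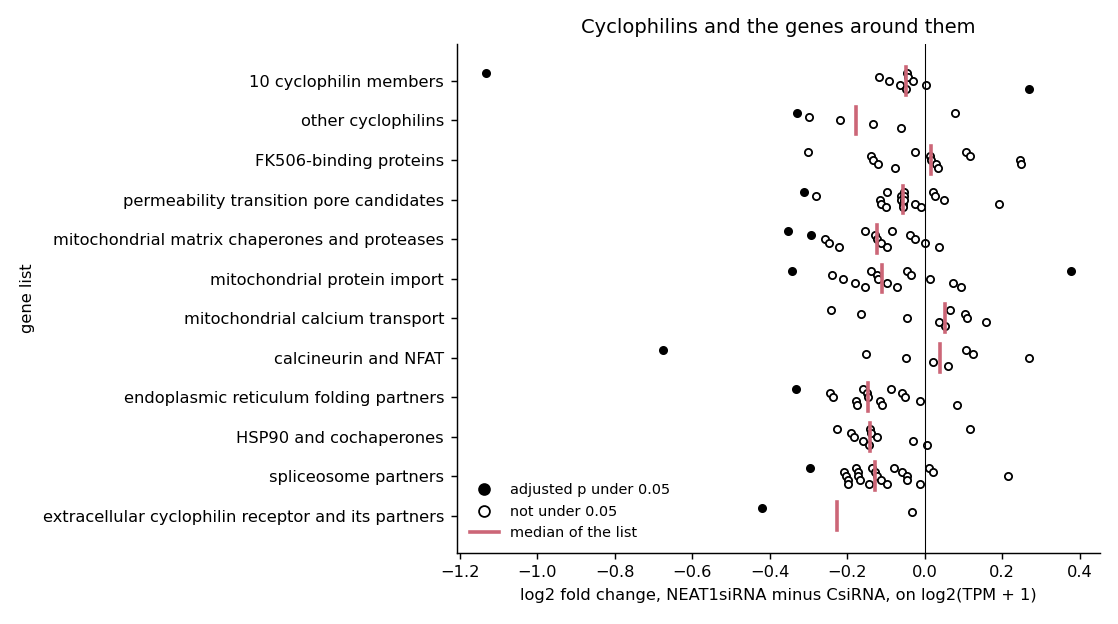
Log2 difference, NEAT1siRNA minus CsiRNA, for each tested gene of the 10 members and of 11 of the 12 lists, with filled points for an adjusted p under 0.05 and bars at the list medians (vertical offsets only separate points). PPIF at -1.13 lies below every gene of the lists shown, where RCAN1 at -0.68 is the lowest and TOMM20 at 0.38 the highest.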

How the data were processed

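Stranded mRNA libraries of BT-549 cells were made with the TruSeq kit, and per the labels and the study's methods STAR (alignment to GRCh38) and DESeq2 (comparison of the groups) were the tools that the authors used. The counting tool and the transcript lengths behind the TPM are not given in the sources used here. The deposited TPM table holds 25545 genes in 6 libraries. In the comparison table of the authors only the signal column, a mean of normalized counts, was used; its fold changes, test scores and p-values were not used. TPM keep no depth, so reads were recovered by scaling the TPM of a gene to its mean normalized count. Of the values for genes with a mean under 5, 99.8% came within 0.05 of a whole number, and 12.3% for genes with a mean of 500 or more, so the reads of abundant genes are approximate. Libraries of a group differed by more than sampling noise, so none was merged.

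TPM were taken as log2(TPM + 1), and the 10721 genes with a mean of at least 1 TPM were fitted with lmFit and eBayes (trend) of limma 3.58.1 in R 4.3.3, with Benjamini-Hochberg adjustment over all of them, a threshold of 0.05 and two-sided p-values. The fit was also run on simulated counts that carried no trend on GC content. That run cannot show how the fit behaves with the GC trend of these libraries. An exact permutation test of 3 libraries against 3 cannot go below p = 0.1, so none was used. Genes were matched to GENCODE by symbol (22278 by current symbol and 745 by an older one). Genes named are the members, NEAT1, genes past the threshold in each list (at most 4, or the 2 most abundant where none passed), the 5 genes most like PPIF, and its neighbours. TARS2 and BSG were named after their values were seen, as were PPP3CA, NFATC2, NKTR, FKBP11, FKBP5 and HK2. The cell markers come from a list of their own. The members and lists were chosen with earlier results of these data known. Tables and figures were made with Python 3.11.15, pandas 2.3.3, numpy 2.4.6 and matplotlib 3.10.9. The results of 1 gene, with its list, and of 1 sequence are not reported here.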

Additional observations from a re-analysis of the deposited data

How the results depend on the processing

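Over 17 other settings no list gene named as past the threshold changed direction. The differences of PPIA, PPIB, PPID, PPIG and PPIL1, near 0 and not past the threshold, changed sign in some settings. The 1498 genes changed became 505 without the filter on TPM, 2380 with a trend on GC content and length removed, 2645 with the replicate block and that trend removed, 2505 with voom on recovered reads, and 759 to 2083 when 1 library was left out (759 without CsiRNA replicate 1, 838 without NEAT1siRNA replicate 3). The 2 members changed became 1 (PPIF) without the filter and when any library was left out. The 10 partner genes changed became 1 without the filter, 18 with quantile normalization, 16 centred on the median, 17 rescaled without the 4 short RNAs, 24 with the trend removed, 27 with the block as well, 20 with voom, and 2 to 19 when 1 library was left out (2 without CsiRNA replicate 1, 6 without CsiRNA replicate 2, 3 without NEAT1siRNA replicate 3, 19 without NEAT1siRNA replicate 2). The cause was not tested. PPIF made up 7.99% and 3.80% of the members' TPM without PPIA.

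The split of 535 higher and 963 lower genes became 1082 and 1109 with quantile normalization, 1158 and 954 centred on the median, 940 and 1119 rescaled, 1245 and 1260 with voom, 376 and 383 without CsiRNA replicate 1 and 413 and 425 without NEAT1siRNA replicate 3. Library deviations followed GC content across 10420 genes. Spearman's rho ran from -0.73 in NEAT1siRNA replicate 2 to 0.68 in NEAT1siRNA replicate 1, so both extremes lie within the silenced group.

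Same-numbered libraries did not clearly deviate together (r = -0.03, 0.25 and -0.11), while differently numbered ones ran from -0.40 to 0.40. These r were taken with the GC trend still in the values, so they cannot settle whether the libraries were paired. With the replicate block, 1640 genes and 16 partner genes changed. PPIE, with a mean of 513 recovered reads, has the fewest reads among the members.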
